A study of Mus musculus with 32 samples.

Results

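Subdural border macrophages (sdCAMs) from the lesioned, ipsilateral hemisphere of stroke brains were compared between 3 mice whose macrophages had been depleted and had repopulated (BLZ945, mice C3, C4 and D1) and 3 control mice (CTL, mice A2, A4 and B1). These 6 samples were chosen by treatment, hemisphere and cell type from 32 in the series and from 16 sdCAM samples, and 2 ipsilateral samples, 1 per treatment (CTL A3 and BLZ945 C2), were left out because their RNA was degraded. All mice were wild-type C57BL/6JCrl young adults of both sexes. BLZ945, an inhibitor of the CSF1 receptor, was given by oral gavage at 200 mg per kg body weight daily for 7 days, and the CTL mice received the cyclodextrin vehicle (labelled Veh). The inhibitor acts on microglia as well as on border macrophages, so the treatment was not limited to the sorted cells. Both groups then had a thromboembolic stroke 8 weeks after the treatment, with a craniotomy and a clot in the middle cerebral artery, and the cells were sorted 1 day later. The sort took CD45+ CD11b+ CD206+ cells that were negative for Ly6C, Ly6G and CD11c, from brain without choroid plexus. It did not separate cells that had survived the treatment from cells that had come in afterwards.

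Border macrophages line the leptomeninges and the perivascular spaces, take up material from the cerebrospinal fluid and present antigen. Like microglia they depend on CSF1 receptor signalling, so a CSF1 receptor inhibitor empties both niches. Emptied border niches can refill from surviving macrophages and from blood monocytes, while microglia renew from surviving microglia. MHC class II is the usual mark of border macrophages that came from monocytes or took up an antigen-presenting role.

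The 6 libraries held 8297066 to 10314584 counts on genes, with 13623 to 15144 genes detected in each, and a floor of 3 counts corresponded to 0.309 to 0.389 CPM (counts relative to library size, scaled by the TMM method unless called plain). The 2 libraries left out held 54055 and 55155 counts. Of 33280 genes, 18297 passed the filter on summed counts. Xist and Y-linked genes read 2 CTL mice as male and 1 as female, against 1 male and 2 female BLZ945 mice. The contralateral library of BLZ945 mouse C2, used only in the comparison of the hemispheres, held both Xist (739 counts) and Y-linked (198 counts) reads. The labels used here name no batch, and the paper states that its stroke RNA sequencing was done at 2 separate centers. Each ipsilateral library carries the label of a different mouse, and the p-values measure the spread between libraries. In the fit 6 mice gave both hemispheres and no term for the mouse was included, so tests between the hemispheres ignore this pairing. The methods of the paper mention pooling cells of 2 BLZ945 mice per replicate, which a figure legend gives for its reporter mice. In bulk samples such as these, fewer cells of a type and less RNA per cell cannot be told apart.

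No gene passed the test between BLZ945 and CTL in the ipsilateral sdCAMs, at an adjusted p of 0.05 and a log2 fold change beyond 0.59 (0 of 18297 genes, 0%, edgeR quasi-likelihood test). At an unadjusted p under 0.05 there were 386 genes higher with BLZ945 (2.11% of those tested) and 648 lower (3.54%). The lowest adjusted p was 0.0628, for Cpne8. For a single value, an exact two-sided permutation test of 3 against 3 cannot go below 0.1, so the fit across all genes was used. Without CTL mouse A2, CTL mouse B1 or BLZ945 mouse C4 edgeR called 7, 10 and 1 genes. DESeq2 called 123 genes on the same counts, 35 higher (0.191%) and 88 lower (0.481%). In 79 of these 123 genes every library of one treatment held 3 counts or fewer, and in 69 the groups did not overlap. Over all genes tested, every BLZ945 library lay above every CTL library for 568 genes (3.10%) and below it for 649 (3.55%). These shares are the background for each list of genes given here, and a list is described by its counts and its median. The median log2 fold change of all genes was 0.

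The sort markers were present in all 6 libraries. In plain CPM, Mrc1, which encodes the sort marker CD206, lay at 1093 to 2654 (median 1410) against 3.23 to 4.98 in whole tissue of the same mice. Cd163, a haemoglobin scavenger receptor, lay at 222 to 922 and Pf4, a chemokine abundant in border macrophages, at 452 to 902. Ly6g was at 0 to 0.703, and Ly6c2 at 1.57 to 26.7. Itgax, which encodes the CD11c used as a negative gate, lay at 7.47 to 54.2. The libraries also held microglial transcripts at high level, with P2ry12 at 1618 to 6507 and Tmem119 at 1485 to 3499. All 26 border macrophage identity genes and all 19 measured microglia genes were higher than in tissue in each of the 6 mice, and the RNA thus carried genes of both cell types. The share of microglia among the sorted cells was not tested.

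**Figure D1:**
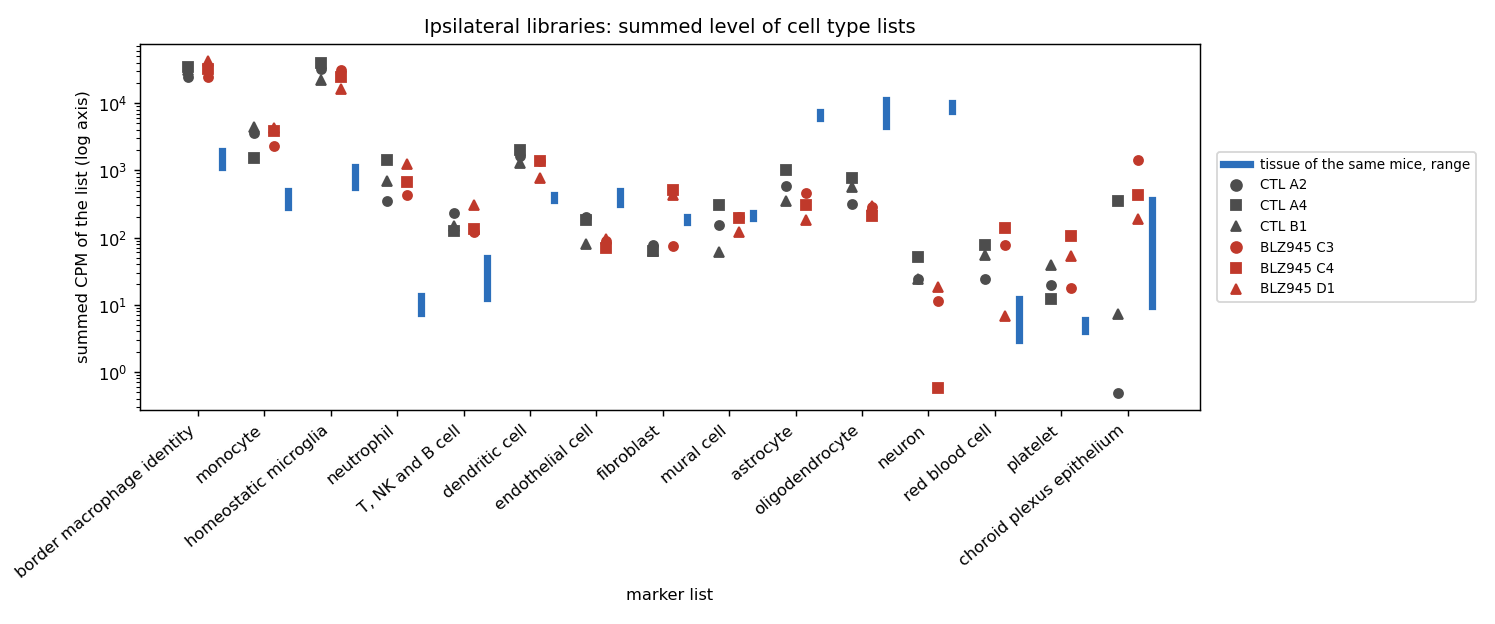
Summed CPM (plain, log axis) of lists of cell type genes in each ipsilateral sdCAM library (grey, 3 CTL; red, 3 BLZ945; 1 symbol per mouse) and the range in tissue of the same 6 mice (blue bars). Border macrophage and microglia genes stand far above tissue and neuronal genes far below it, and the fibroblast list reaches 515 CPM with BLZ945 against 78.5 with CTL.

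Lists for other cells were present at these summed levels. The neuron list summed to 24.02 to 50.6 CPM with CTL and 0.582 to 18.4 with BLZ945, the astrocyte list to 347 to 1010 and 181 to 466, and the oligodendrocyte list to 318 to 772 and 210 to 294. Their median log2 fold changes were -1.57, -1.40 and -1.39, with 0 of 8 genes above 0 in each. The fibroblast list lay at 63.7 to 78.5 CPM with CTL and 75.9 to 515 with BLZ945, with all 9 genes above 0 and a median of 1.82. The summed level of neutrophil genes was 346 to 1412 CPM with CTL and 429 to 1245 with BLZ945, and 145 to 1143 and 148 to 1059 without Csf3r. Choroid plexus genes summed to 0.478 to 353 CPM with CTL and 188 to 1426 with BLZ945 although the plexus had been removed, and endothelial genes to 80.0 to 204 and 71.0 to 95.1. These levels are set beside the macrophage results that follow, and their part in those results was not tested.

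Named members of these lists varied by mouse. Snap25 and Map2, of neurons, had log2 fold changes of -2.61 and -1.11, and Mag, of myelin, -0.98. Kcnj13, a potassium channel of choroid plexus, was at 0, 2.20 and 0 CPM with CTL against 8.90, 3.01 and 3.91 with BLZ945. S100a8, of neutrophils, had 0.40, Cd4 -1.64 and Cd209a, of dendritic cells, -0.66. Csf3r and Siglech, which stand in the neutrophil and dendritic cell lists and also in the microglia list, had 0.051 and -0.48. Acta2 and Vtn, of mural cells, had -0.11 and 0.09, Hba-a1 and Hbb-bt, of red blood cells, 0.67 and 0.01, and Ppbp and Gp9, of platelets, 2.06 and -0.30.

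The marker genes Mrc1, Cd163 and Pf4 overlapped between repopulated and control cells. Values are given in the order A2, A4 and B1 for CTL and C3, C4 and D1 for BLZ945. Mrc1 was at 1146, 1759 and 2325 CPM with CTL against 1273, 1210.3 and 2819 with BLZ945. The groups overlapped, with the highest value of each in B1 and D1. Its log2 fold change was 0.02 ± 0.53 (SE), and the 95% interval of the fold was 0.466 to 2.20. Csf1r, the receptor that BLZ945 blocks, was at 5646, 8688 and 7399.7 CPM with CTL against 7848, 6632 and 6767 with BLZ945. That is a fold of 0.978 with a 95% interval of 0.614 to 1.56, so that differences within this interval were not excluded. Pf4, Lyve1 (a hyaluronan receptor of border macrophages), Ms4a7 and Apoe had log2 fold changes of 0.23, -0.0035, 0.20 and 0.062, each with overlapping groups.

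Cd163 was at 454, 992 and 942 CPM with CTL against 238, 624 and 321 with BLZ945. It was lower in C3 and D1 than in any CTL mouse and between the CTL values in C4, so that the groups overlapped (log2 fold change -1.01 ± 0.54 (SE), adjusted p = 0.838). Folr2, a folate receptor of tissue macrophages, was 0.60 on the same log2 scale, C4b -0.56 and Lyz2, the macrophage lysozyme, 0.45, and all 3 overlapped. Of the 15 marker and lineage genes plotted, Fxyd5, H2-Aa, Cd74 and Clec12a had groups that did not overlap.

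**Figure D2:**
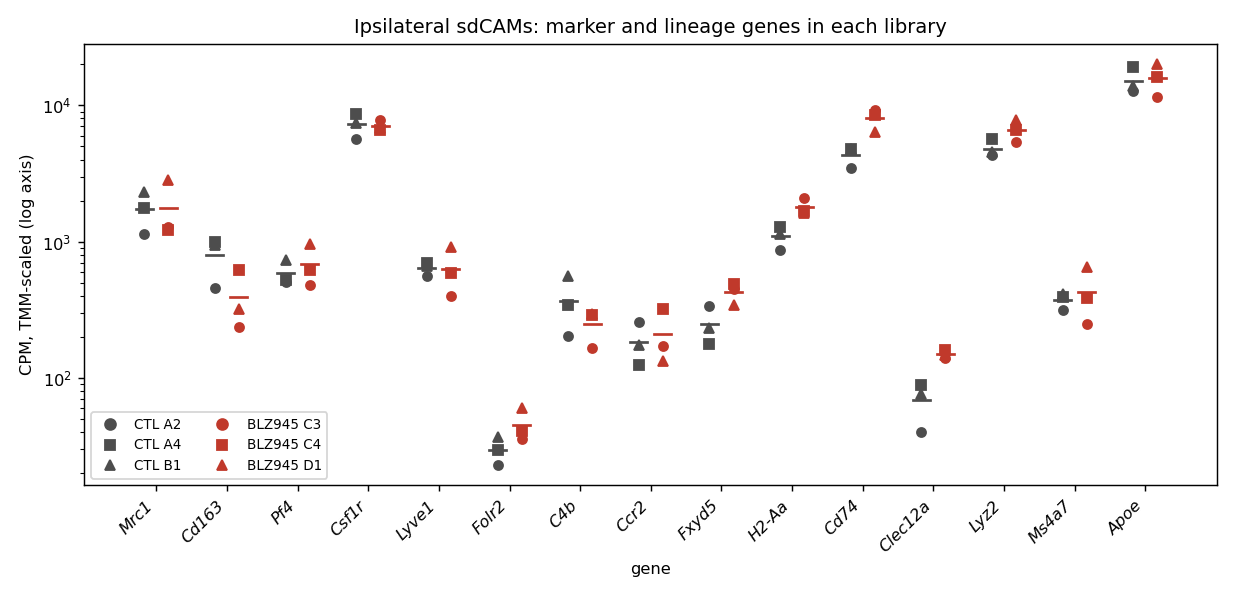
CPM (TMM-scaled, log axis) of 15 marker and lineage genes in the 3 CTL (grey) and 3 BLZ945 (red) ipsilateral sdCAM libraries, with 1 symbol per mouse and a line at each mean. The groups are apart for Fxyd5, H2-Aa, Cd74 and Clec12a and overlap for the other 11 genes.

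Of 26 border macrophage identity genes, 2 were higher in every BLZ945 library than in every CTL library, 1 was lower and 23 overlapped, with a median log2 fold change of 0.20 and 18 of 26 above 0. The higher ones were Clec12a and Ms4a6c. Clec12a, an inhibitory C-type lectin receptor of myeloid cells, was at 40.4, 88.98 and 76.4 CPM with CTL against 139.8, 161 and 147 with BLZ945. The 3 BLZ945 libraries lay close together and above the CTL range, with a log2 fold change of 1.12 ± 0.34 (SE) and an adjusted p of 0.749. For Ms4a6c, a membrane protein of the MS4A family, the log2 fold change was 0.27 ± 0.26 (SE), and -0.63 when the degraded libraries were added. The lower one was Colec12, a scavenger receptor C-type lectin, at 116, 207 and 202 CPM with CTL against 43.4, 54.4 and 102 with BLZ945. Each BLZ945 value was under each CTL value, with a log2 fold change of -1.40 ± 0.44 (SE) and an adjusted p of 0.789. The contralateral log2 fold change of Colec12 was -1.22 ± 0.38 (SE).

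Of 19 class II presentation genes, 4 were higher in each repopulated library than in each control library, none past the adjusted test. MHC class II molecules are pairs of an alpha and a beta chain that carry peptide to CD4 T cells, and Cd74 encodes the invariant chain that guides them through the cell. Cd74 was at 3463, 4794 and 4792 CPM with CTL against 9205, 8460.0 and 6358 with BLZ945. H2-Aa, an alpha chain, was at 868, 1286 and 1145 CPM with CTL against 2082, 1681 and 1609.9 with BLZ945, and H2-Eb1, a beta chain, at 656, 984 and 869 CPM with CTL against 1771, 1316 and 1142 with BLZ945. In all 3 genes the lowest BLZ945 library was above the highest CTL library, and C3 was the highest of the 6. The log2 fold changes were 0.88 ± 0.29 (SE) for Cd74, 0.70 ± 0.26 (SE) for H2-Aa and 0.75 ± 0.26 (SE) for H2-Eb1. The folds and their 95% intervals were 1.84 (1.20 to 2.82), 1.63 (1.12 to 2.38) and 1.69 (1.15 to 2.47). None passed the adjustment over all genes (adjusted p = 0.838, 0.838 and 0.838 in edgeR).

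H2-Ab1, the beta chain that pairs with H2-Aa, was added after its values were seen, as the last of 4 list members without overlap. It was at 1660.4, 2011 and 1834 CPM with CTL against 3319.7, 2752 and 2347 with BLZ945, a log2 fold change of 0.61 ± 0.24 (SE). Of the 19 genes in the list, 4 were higher without overlap (568 of 18297 genes, 3.10%, over all), 5 were higher at an unadjusted p under 0.05 against 2.11% over all, and 14 overlapped. The median of the list was 0.16, and 13 of 19 were above 0. With 1 mouse left out it lay between -0.12 and 0.27. Ciita, the master regulator of class II transcription, had a log2 fold change of -0.29 ± 0.57 (SE). Ctss, the protease that trims the invariant chain, had 0.015 and the costimulatory Cd86 -0.13. Rfx5, a DNA-binding factor of class II promoters, was lower without overlap, at 14.5, 18.8 and 13.8 CPM with CTL against 8.17, 12.7 and 10.3 with BLZ945 (-0.60 ± 0.62 (SE)).

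Dendritic cells and B cells also carry class II. The dendritic cell list summed to 1301 to 2044 plain CPM with CTL and 771 to 1382 with BLZ945, with 1 of 10 genes above 0. Without Siglech, which microglia also express, it summed to 395 to 665 and 269 to 566. The B cell gene Cd79a was at 6.77, 6.87 and 12.6 CPM with CTL against 0.975, 11.2 and 26.6 with BLZ945, highest in D1 and lowest in C3, the library with the most Cd74. Their part in the class II values was not tested.

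Promoter sequence is shown for 3 class II genes because they share the short element at which this gene family is switched on together. The windows come from the RefSeq table for GRCm38.p6 and cover the 120 bases before the start of each gene, written 5′ to 3′ on the strand of the gene. Capitals mark TGATTGG, the core of the Y box, searched on both strands as TGATTGG and CCAATCA. H2-Aa lies on the minus strand at chr17:34287824-34287943, H2-Eb1 on the plus strand at chr17:34305747-34305866 and H2-DMb1, a chain of the peptide loading factor, on the plus strand at chr17:34153071-34153190.
H2-Aa: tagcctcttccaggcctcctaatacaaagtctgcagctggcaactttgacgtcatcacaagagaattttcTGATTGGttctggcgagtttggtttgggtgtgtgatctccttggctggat
H2-Eb1: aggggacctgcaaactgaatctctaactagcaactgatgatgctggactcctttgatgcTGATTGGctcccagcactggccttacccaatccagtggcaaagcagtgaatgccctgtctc
H2-DMb1: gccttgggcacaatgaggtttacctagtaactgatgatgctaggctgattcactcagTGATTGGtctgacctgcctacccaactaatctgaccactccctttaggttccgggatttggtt
Of the 19 list genes 13 had a window of 300 bases in the table, and in 8 of these 13 a window held the motif, against 7.82% of all 32851 windows. The first share counts genes and the second windows, and in Rfx5 the match lay on the opposite strand. The motif was chosen for this gene family, so its share in the list is a description. H2-DMb1 was at 225, 207 and 191 CPM with CTL against 275, 231 and 177 with BLZ945, overlapping, with a log2 fold change of 0.13 ± 0.21 (SE), beside the non-overlapping H2-Aa and H2-Eb1. A match is a description of the letters and not a binding site.

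**Figure D3:**
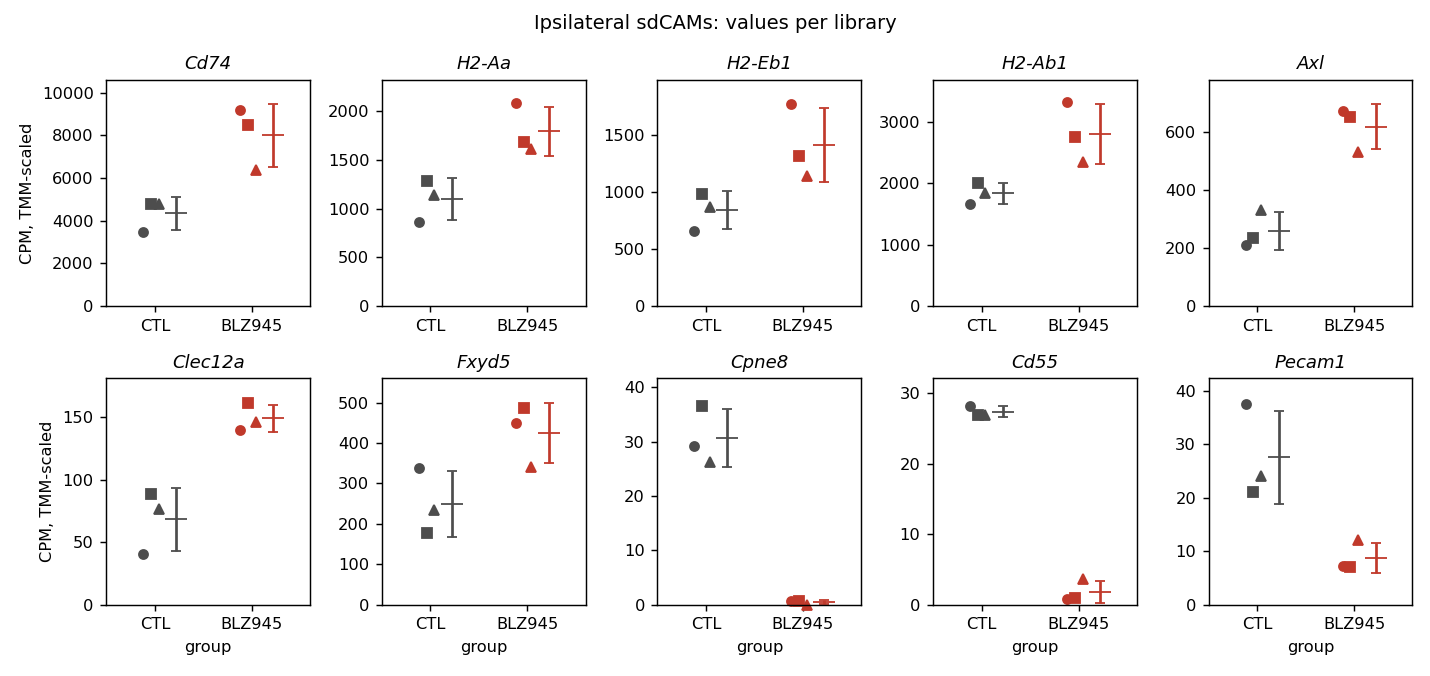
CPM (TMM-scaled, linear axes from 0) of 10 genes in each ipsilateral sdCAM library, grey for the 3 CTL and red for the 3 BLZ945 mice, with mean and SD of 3 to the right of the points. The first 7 genes are higher in each BLZ945 library and Cpne8, Cd55 and Pecam1 are lower, with no overlap in any of the 10 panels.

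Monocytes are the blood precursors of macrophages and their genes linger in cells that have entered tissue recently. Of 26 monocyte and monocyte-derived macrophage genes, 1 was higher without overlap, 0 lower and 25 overlapped, with a median of 0.18. That gene was Fxyd5, a regulator of the sodium pump and of adhesion, at 337, 177 and 234 CPM with CTL against 448, 485 and 341 with BLZ945 (log2 fold change 0.77 ± 0.26 (SE), adjusted p = 0.838). CTL mouse A2 came close to the lowest BLZ945 mouse, D1. Ccr2, the chemokine receptor that brings monocytes out of the marrow, was at 256, 124 and 174 CPM with CTL against 173, 323 and 134 with BLZ945, with the groups interleaved (0.18 ± 0.41 (SE)). Ly6c2, whose product the sort excluded, had a log2 fold change of 1.06 ± 0.66 (SE). Arg1, Fn1 and Thbs1, genes of recently arrived macrophages in lesions, had wide ranges in both groups. Arg1 was at 63.2, 0 and 319 CPM with CTL against 3.05, 297 and 159.6 with BLZ945.

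Microglia genes were on the lower side in repopulated mice. Of the 19 measured, 17 had a log2 fold change below 0 and the median was -0.35. Cx3cr1, the fractalkine receptor, was the 1 gene without overlap, at 3775, 4361 and 3378 CPM with CTL against 3149, 2554 and 2345 with BLZ945 (-0.52 ± 0.26 (SE), adjusted p = 0.838). P2ry12, a purine receptor of resting microglia, was at 4083, 7003 and 2522 CPM with CTL against 3329, 2364 and 1719 with BLZ945, where C3 exceeded B1 (-0.88 ± 0.35 (SE)). The log2 fold change of Tmem119 was -0.066 ± 0.34 (SE), and Fcrls was not in the tested genes. The summed list was 22061 to 39750 plain CPM with CTL and 16535 to 31147 with BLZ945.

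In the CSF1 receptor axis, the signal that was blocked 8 weeks earlier, 19 of 20 genes overlapped, and the median log2 fold change was -0.05. Csf2ra, a chain of the GM-CSF receptor, was the exception at 162, 134 and 132 CPM with CTL against 233, 173 and 174 with BLZ945 (0.44 ± 0.32 (SE)). Spi1, which encodes the myeloid factor PU.1, had -0.04 ± 0.24 (SE) and the ligand Csf1 -0.53 ± 0.58 (SE). Of the 22 lineage transcription factors only Irf4 did not overlap, at 8.03, 7.78 and 9.12 CPM with CTL against 10.1, 12.9 and 30.2 with BLZ945, highest in D1.

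Of 40 cell cycle genes, 3 were higher without overlap, 3 lower and 34 overlapped, with a median of -0.10. Mki67, the standard proliferation marker, was at 0, 0 and 1.29 CPM with CTL against 0, 0 and 1.03 with BLZ945. Top2a, a topoisomerase of dividing cells, was at 3.89, 0 and 4.40 CPM with CTL against 6.09, 7.28 and 10.8 with BLZ945 and Aurka, a mitotic kinase, at 10.03, 4.15 and 5.58 CPM with CTL against 2.68, 1.88 and 2.37 with BLZ945, each without overlap and in opposite directions. Cdt1, which licenses replication origins, was at 13.04, 6.36 and 14.9 CPM with CTL against 19.01, 22.2 and 34.2 with BLZ945 (1.13 ± 0.71 (SE)).

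**Figure D4:**
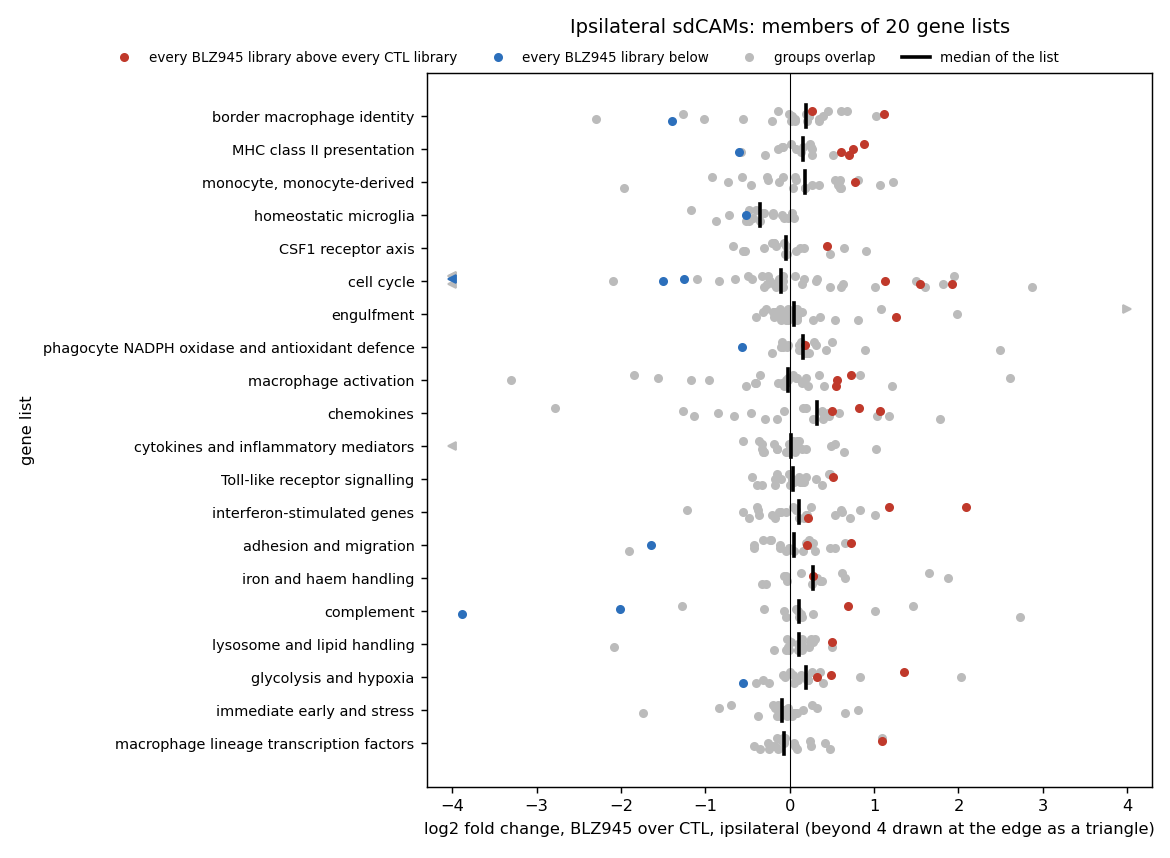
Log2 fold change (BLZ945 over CTL, ipsilateral sdCAMs) of each tested member of 20 gene lists, with the list median as a black line. Red members were higher and blue members lower in every BLZ945 library; the medians run from -0.35 for microglia to 0.32 for chemokines.

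Axl was the 1 engulfment gene without overlap. It encodes a receptor of the TAM family that binds dying cells through Gas6, and was at 209.9, 233 and 332 CPM with CTL against 674, 651 and 532 with BLZ945. All BLZ945 libraries lay above the CTL range, and the mean was 258 ± 64.9 CPM (SD, n = 3) with CTL against 619 ± 76.3 (SD, n = 3) with BLZ945. The log2 fold change was 1.26 ± 0.32 (SE), a fold of 2.40 with a 95% interval of 1.49 to 3.84, at an adjusted p of 0.523 in edgeR and 0.0131 in DESeq2, where the gene was called (0.0131 to 0.97 over 13 alternatives). The other 34 of 35 engulfment genes overlapped, and the median of the list was 0.05. Among them were Mertk (-0.11), a related receptor, and Pros1 (0.11), which encodes protein S, a ligand of the TAM family. Gas6, of the identity list, had 0.19 and also overlapped.

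Among 20 NADPH oxidase and antioxidant genes, Sod1, the cytosolic superoxide dismutase, was lower without overlap at 31.4, 27.8 and 26.6 CPM with CTL against 17.3, 19.8 and 20.6 with BLZ945 (-0.57 ± 0.36 (SE)). The catalytic subunit Cybb was at 445, 466 and 551 CPM with CTL against 442, 502 and 763 with BLZ945 and overlapped. Of 30 macrophage activation genes 3 were higher without overlap and 27 overlapped. These were Lgals1, a galectin (228, 138 and 242 CPM with CTL against 282, 338 and 384 with BLZ945, 0.72 ± 0.27 (SE)), Hk3, a myeloid hexokinase (0.56 ± 0.44 (SE)), and Vim, the intermediate filament vimentin (0.55 ± 0.32 (SE)). Spp1, or osteopontin, was at 10024, 27.1 and 2505 CPM with CTL against 1151, 2176 and 2271 with BLZ945, and the BLZ945 values lay inside the CTL range.

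Chemokines had the highest median of the 20 lists, 0.32, with 3 of 24 members higher without overlap. Ccl6, a chemokine made by resident macrophages, was at 665, 499.9 and 1096 CPM with CTL against 1248, 1123 and 1625 with BLZ945 (0.82 ± 0.37 (SE)), with B1 of the CTL group close under C4. Cxcl16, a membrane-bound ligand for CXCR6, was at 221, 177 and 260.1 CPM with CTL against 332, 306 and 292 with BLZ945 (0.50 ± 0.28 (SE)). Ackr1, a scavenging receptor on vessels and red cells, was the third and was at 2.63, 0.778 and 2.47 CPM with CTL against 3.53, 2.76 and 6.07 with BLZ945. Ccl2, Ccl3 and Ccl4 had log2 fold changes of -0.15, -0.66 and -0.85 with overlap. Of 28 cytokine and mediator genes none was without overlap, and Ptgs1 (cyclooxygenase 1) and Il4ra, the most abundant of them, had -0.15 and 0.19. Of 22 Toll-like receptor genes, the adaptor Ticam1 did not overlap (0.51 ± 0.61 (SE)).

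Of 27 interferon-stimulated genes, 3 were higher without overlap and the median was 0.10. Oasl2, an oligoadenylate synthetase-like protein, was at 46.5, 34.5 and 42.6 CPM with CTL against 66.8, 115 and 98.2 with BLZ945 (1.18 ± 0.43 (SE)), and Mx1, a GTPase that restricts virus, at 0.125, 6.10 and 6.33 CPM with CTL against 6.70, 32.5 and 14.3 with BLZ945 (2.09 ± 0.94 (SE)), with C3 just above B1. Irf9, the DNA-binding part of the interferon response factor, differed by 0.22 ± 0.22 (SE). Ifit3 had -0.55 ± 0.44 (SE) and Irf7 -0.38 ± 0.43 (SE), both with overlap.

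Glycolysis and hypoxia genes gave 3 of 23 higher and 1 lower. Gpi1, the second enzyme of glycolysis, was at 196, 148 and 179 CPM with CTL against 218, 235 and 284 with BLZ945 (0.49 ± 0.18 (SE)), Tpi1 differed by 0.32 ± 0.25 (SE), and the third, Ankrd37, was at 1.13, 0 and 3.33 CPM with CTL against 3.41, 3.89 and 4.22 with BLZ945. Slc2a1, a glucose transporter, was lower, at 168, 145 and 159.5 CPM with CTL against 97.3, 119 and 107 with BLZ945 (-0.55 ± 0.41 (SE)). Every contralateral library held more of it, at 548 to 1816 CPM, as for some vessel genes given below. The part of vessel cells in the Slc2a1 values was not tested. Lipa, the lysosomal acid lipase, was the 1 lysosome gene of 23 without overlap (292, 230.2 and 316 CPM with CTL against 359, 411 and 416 with BLZ945, 0.50 ± 0.22 (SE)), and Slc11a1, a phagosomal metal transporter, the 1 iron gene of 15 (0.28 ± 0.28 (SE)). The 24 immediate early genes all overlapped. Fos was at 692, 957 and 3892 CPM with CTL against 1001, 957 and 3474 with BLZ945 and Zfp36 at 1058, 1230.0 and 3370.3 CPM with CTL against 1669, 1287 and 3071 with BLZ945, and both were highest in B1 and D1, 1 mouse of each group.

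Of 16 complement genes 2 were lower and 1 was higher without overlap, and of 23 adhesion genes 1 was lower and 2 were higher. Cd55, the decay-accelerating factor that shields cells from complement, was at 28.2, 26.8 and 26.9 CPM with CTL against 0.853, 1.00 and 3.60 with BLZ945. The CTL values lay close together, and each BLZ945 value was far under them. The means were 27.3 ± 0.767 CPM (SD, n = 3) and 1.82 ± 1.55 (SD, n = 3), a log2 fold change of -3.88 ± 0.78 (SE) (adjusted p = 0.308 in edgeR, 0.000121 in DESeq2, and 0.000121 to 0.97 over 13 alternatives). C2, a complement protease, was at 13.4, 22.6 and 21.6 CPM with CTL against 1.83, 10.5 and 1.85 with BLZ945 (-2.02 ± 0.83 (SE)), and Cfp, properdin, was higher at 193, 138 and 188 CPM with CTL against 205, 247 and 387 with BLZ945 (0.69 ± 0.33 (SE)). Of 16 complement genes 13 overlapped. Pecam1, the adhesion molecule CD31 of vessel lining and leukocytes, was at 37.5, 21.01 and 24.1 CPM with CTL against 7.31, 7.03 and 12.05 with BLZ945 (-1.64 ± 0.34 (SE), adjusted p = 0.308), while Jaml and Fermt3, 2 leukocyte adhesion genes, were higher without overlap (0.73 and 0.20). The other 20 of 23 adhesion genes overlapped.

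The 12 lower genes with the smallest unadjusted p began with Cpne8, a calcium-dependent membrane-binding protein. It was at 29.1, 36.6 and 26.3 CPM with CTL against 0.731, 0.628 and 0 with BLZ945, with 232, 282 and 245 counts against 6, 5 and 0. The BLZ945 libraries were near the floor while the CTL libraries were well above it, and the log2 fold change was -6.08 ± 0.86 (SE) (adjusted p = 0.0628). Cpne8 was called with the sex of the mouse in the fit, with no filter on counts, and without A2 or B1. Ptprg and Ptprb, 2 receptor phosphatases, Flt1, a VEGF receptor, and Tppp, a tubulin-binding protein of oligodendrocytes, followed with -4.82, -2.77, -1.81 and -1.87. Tppp was at 31.6, 51.8 and 40.7 CPM with CTL against 11.1, 12.1 and 10.7 with BLZ945 and Flt1 at 17.1, 29.4 and 15.1 CPM with CTL against 8.04, 3.01 and 6.38 with BLZ945. Degs2, Dixdc1 and Zfp850 held 3 counts or fewer over all BLZ945 libraries. Their CPM ratios of CTL over BLZ945, with a 95% counting interval, were 67.3 (18.3 to 562), 44.5 (14.9 to 219) and 277 (49.4 to 10999). With CTL, Degs2 held 92, 34 and 4 counts and Dixdc1 4, 99 and 26. Degs2 in B1 and Dixdc1 in A2 were thus near the floor too. The log2 fold change of Dixdc1 ran from -6.29 to -0.46 over 13 alternatives. Nkain4 and Rgs12 complete the 12 with Cd55 and Pecam1, at -4.64 and -4.29. Of these 12 genes 7 were higher in tissue than in sdCAMs in all 6 mice, against 36.1% of all genes tested. The share was 35.3% of the non-overlapping lower genes with a group mean of at least 5 CPM, the level required of these 12. The neuron, astrocyte and oligodendrocyte lists had medians below 0, as given above. The endothelial list, which holds Pecam1 and Flt1, had a median of -0.76, with 3 of 10 genes above 0. The part of these cells in the 12 genes was not tested.

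The 12 higher genes were led by A2m, the protease inhibitor alpha-2-macroglobulin, with 0 counts in all CTL libraries and 22, 27 and 146 with BLZ945. Set against the mean floor of 3 counts in the CTL libraries, the BLZ945 mean was at least 19.4-fold higher, with D1 far above C3 and C4. Cspg4, the NG2 proteoglycan of pericytes and oligodendrocyte precursors, was at 0.125, 3.37 and 1.18 CPM with CTL against 32.1, 9.29 and 16.3 with BLZ945 (3.62 ± 0.88 (SE)), and Htra3, a secreted protease, at 18.2, 13.4 and 9.66 CPM with CTL against 56.8, 33.01 and 39.4 with BLZ945 (1.65 ± 0.40 (SE)). Cd248 (endosialin) and Col18a1, both of mesenchymal or vessel-wall cells, had 3.63 and 2.94. Tns2, Bcat2, Wee1 and Dmxl2 had 2.00, 0.90, 3.42 and 2.87. Bcat2, the mitochondrial branched-chain aminotransferase, was at 37.2, 27.2 and 31.01 CPM with CTL against 45.3, 75.6 and 56.8 with BLZ945. Klrb1c, the NK1.1 receptor of natural killer cells, was at 3.14, 4.28 and 3.43 CPM with CTL against 7.92, 11.9 and 27.7 with BLZ945 (2.13 ± 0.68 (SE)), with D1 highest, and Axl and Clec12a close the list. Of these 12 genes 5 were higher in tissue in all 6 mice, against 29.2% of the non-overlapping higher genes with a group mean of at least 5 CPM. The fibroblast list was at 515 and 431 plain CPM in C4 and D1 but at 75.9 in C3. The part of fibroblasts and vessel-wall cells here was not tested.

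Of the 35 genes DESeq2 called as higher, 15 (42.9%) were higher in tissue than in sdCAMs in all 6 mice, and of the 88 called as lower, 56 (63.6%). The share over all genes tested was 36.1%. Among the largest of them without overlap, Prlr, the prolactin receptor, held 0 counts in all CTL libraries and 76, 39 and 40 with BLZ945. Its BLZ945 mean was at least 16.8-fold above the mean floor of the CTL libraries. Zfp354b held 44, 97 and 6 counts with CTL and 0 in all BLZ945 libraries. Its CTL mean was at least 17.8-fold above the mean floor of the BLZ945 libraries, but B1, at 0.644 CPM, was near the floor. Zscan18 and Snph held 2 counts over the BLZ945 libraries, with CTL over BLZ945 ratios of 148 (40.5 to 1224) and 102 (27.9 to 848) as 95% counting intervals. Prlr is a gene of choroid plexus epithelium, and Ttr, the most abundant product of that epithelium, was at 0.502, 342 and 5.58 CPM with CTL against 1463, 449.9 and 188 with BLZ945, with the groups overlapping. The part of choroid plexus in the Prlr values was not tested. Lum and Dcn, matrix proteoglycans of fibroblasts, were at 0.251, 0.259 and 2.15 CPM with CTL against 0.122, 117 and 34.8 with BLZ945 and at 12.4, 23.5 and 25.1 CPM with CTL against 16.5, 267 and 314 with BLZ945, high in C4 and D1 and within the CTL range or below it in C3, and Col3a1, a fibrillar collagen, at 6.15, 7.52 and 0.858 CPM with CTL against 12.2, 34.02 and 24.7 with BLZ945. Gja1, the gap junction protein of astrocytes, was lower without overlap at 155, 88.1 and 162 CPM with CTL against 39.97, 37.9 and 44.1 with BLZ945 (-1.73 ± 0.48 (SE)).

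The same treatments were compared in the contralateral sdCAMs, 4 CTL against 4 BLZ945 libraries, to ask whether the difference was particular to the lesioned side. No gene passed the test there (0%) and none passed the test of the difference between the hemispheres (0%, edgeR), with 1133 and 912 genes at an unadjusted p under 0.05. Of those 912, 341 had a more positive (1.86%) and 571 a more negative (3.12%) difference on the ipsilateral side. DESeq2 called 39 (0.213%) and 48 (0.262%) genes. Without the C2 library edgeR again called 0 in both. With the mouse as a replicate block, limma voom called 11 genes contralaterally and 0 for the difference between the hemispheres. Some vessel genes were higher in every contralateral than in every ipsilateral library, in both treatments. Acta2 was at 572 to 3746 CPM contralaterally against 23.5 to 88.8 ipsilaterally, and Flt1 at 143 to 378 against 3.01 to 29.4. The part of this in the differences between the hemispheres was not tested.

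The class II list had a median log2 fold change of 0.16 on the ipsilateral and 0.38 on the contralateral side. The contralateral log2 fold changes were 1.03 ± 0.25 (SE) for Cd74, 0.96 ± 0.22 (SE) for H2-Aa and 0.96 ± 0.23 (SE) for H2-Eb1, and the differences between the hemispheres were -0.15 ± 0.38 (SE), -0.26 ± 0.34 (SE) and -0.21 ± 0.34 (SE), none of which passed the test. Microglia genes had medians of -0.35 and -0.69. The identity genes had a median of 0.20 on the ipsilateral and -0.63 on the contralateral side, with the median of their differences at 0.69. Lyve1 was at -0.0035 ipsilaterally and -1.12 ± 0.39 (SE) contralaterally, and Pf4 at 0.23 and -0.87 ± 0.33 (SE). The difference for Pf4 was 1.10 ± 0.51 (SE) at an unadjusted p of 0.0455, the 1 identity gene of 26 under 0.05, and its adjusted p was 0.992.

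Neutrophil and monocyte genes had the most negative differences between the sides among the 32 lists. The neutrophil markers had medians of 0.26 and 2.26 and a median difference of -2.01, with 3 of 11 negative under 0.05, and without Csf3r the median difference was -2.11. For monocyte genes the median was 0.18 on the ipsilateral and 1.32 on the contralateral side, and the median of the differences was -1.16. Of 26 genes 5 were at an unadjusted p under 0.05, all negative (against 3.12% over all). They were Ccr2, Chil3 (a chitinase-like protein), Napsa, Ms4a4c and Ifitm6, named after their values were seen. For Ccr2 the contralateral libraries held 76.6, 47.6, 119.5 and 74.6 CPM with CTL against 292, 137, 167 and 313 with BLZ945, without overlap, while the ipsilateral groups overlapped. The difference was -1.33 ± 0.54 (SE) (adjusted p = 0.992). Interferon-stimulated genes had medians of 0.10 and 0.90, with 2 of 27 negative under 0.05, Irf7 and Ifit3.

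For Cd55 and Pecam1 the groups overlapped on the contralateral side. Cd55 was at 13.4, 12.4, 22.4 and 21.5 CPM with CTL against 5.19, 28.4, 55.1 and 15.2 with BLZ945, given in the order A2, A3, A4, B1 and C2, C3, C4, D1. The difference between the sides was -4.46 ± 0.96 (SE) (unadjusted p = 0.00031, adjusted p = 0.694). Pecam1 was at 111 to 194 CPM in contralateral CTL and 130 to 283 in contralateral BLZ945 libraries, above every ipsilateral library in both groups, and its difference was -2.02 ± 0.44 (SE) (adjusted p = 0.694). Cpne8 was at 20.97 to 46.9 and 6.41 to 28.6 CPM there, with a difference of -5.08 ± 0.98 (SE) (adjusted p = 0.694). Axl was 0.65 ± 0.27 (SE) on the contralateral side and Clec12a 0.43 ± 0.29 (SE).

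**Figure D5:**
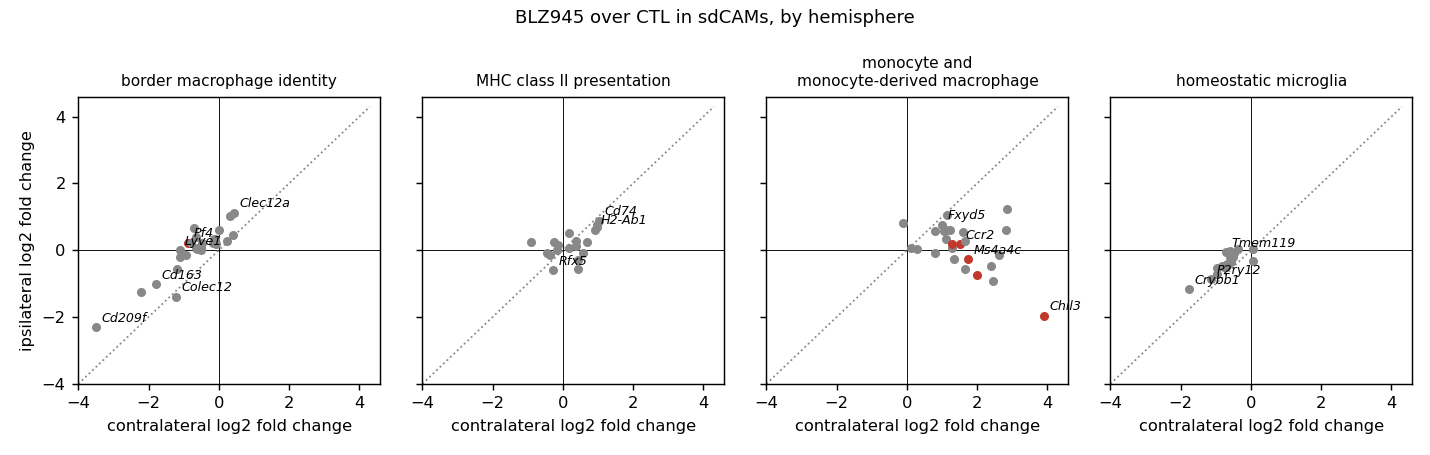
Log2 fold change of BLZ945 over CTL in contralateral (x axis) and ipsilateral (y axis) sdCAMs for the members of 4 gene lists, with a dotted line of equal change. Red members had an unadjusted p under 0.05 for the difference between the hemispheres: 5 monocyte genes below the line and Pf4 above it.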

How the data were processed

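RNA was measured in sdCAMs sorted from both hemispheres and in tissue. Per the labels and the methods of the study, the authors demultiplexed reads with bcl2fastq 2.20, aligned them with STAR 2.7.11a, counted them per gene with featureCounts 2.0.8 and deposited raw counts, in 1 table for sdCAMs and 1 for tissue. The genome build is not given unambiguously in the sources used here. Reads were counted without molecular identifiers, and the counting intervals and floors cover counting error only. The fold intervals come from the SE of the edgeR fit, which holds the spread between libraries.

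Genes were kept where their counts over 14 sdCAM libraries summed to 7 or more, and fitted in 4 groups with edgeR 4.0.16 (quasi-likelihood, TMM, R 4.3.3), with Benjamini-Hochberg adjustment. DESeq2 1.42.0 and limma 3.58.1 served as alternatives, and the fit was tested on simulated counts. Groups came from the labels. Of 16 tissue columns 10 were not used. Fold intervals have a confidence level of 95%. The members and gene lists were chosen with earlier results of these data known. The genes named were the marker and lineage genes, per list up to 3 non-overlapping members in each direction by fold change at a group mean of at least 5 CPM (else the 2 most abundant), the 12 non-overlapping genes in each direction with the smallest unadjusted p, and the 5 largest non-overlapping DESeq2 calls in each direction. Other list members stand beside them by role and were chosen after their values were seen. Both hemispheres came from the same mouse: after subtraction of group means, libraries of 1 mouse correlated at 0.0703 to 0.278 over 11071 genes. Libraries of different mice correlated at -0.191 to 0.187, so the ranges overlapped. All 6 ipsilateral libraries were closest to their own mouse, C3 narrowly (0.177 against 0.176 with A4). No pair of libraries was a copy (variance 35.1 to 67.0 times that of sampling). Some genes that the naming rule covers are not reported here.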

Additional observations from a re-analysis of the deposited data

How the results depend on the processing

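Counts of called genes depended on the tool. DESeq2 called 123 genes for BLZ945 against CTL in ipsilateral sdCAMs, 39 in contralateral sdCAMs and 48 for the difference between the hemispheres, against 0 each in edgeR, and 79 of the 123 had 3 counts or fewer in each library of one treatment. Ipsilaterally, edgeR called 1 gene, Cpne8, with the sex of the mouse as a covariate and 1, again Cpne8, with no filter on counts. Leaving out each mouse gave 0 to 10 ipsilateral calls (7 without A2, 10 without B1, 1 without C4, Clec14a) and 0 to 7 for the difference between the hemispheres (7 without B1), and the cause was not tested. Both hemispheres came from the same mouse: limma voom with the mouse as a replicate block called 0 genes ipsilaterally, 11 contralaterally and 0 for the difference between the hemispheres, and the mouse as a fixed replicate block called 0 for that difference, with 573 genes at an unadjusted p under 0.05. Genes without overlap numbered 1045 to 1518 higher and 1182 to 1598 lower with 1 mouse left out, since fewer libraries overlap less by construction. Ms4a6c changed sign, to -0.63, with all 16 libraries, which include the degraded ones. The other named genes without overlap kept their sign under the 13 alternatives run, but leaving out a mouse could not turn their means, since these genes were named for groups that do not overlap. With 1 mouse left out, the medians of 14 of 20 lists crossed 0, among them border macrophage identity (-0.11 to 0.30), MHC class II (-0.12 to 0.27) and chemokines (-0.03 to 0.75). The 6 that did not were microglia (-0.60 to -0.13), monocyte, interferon-stimulated, iron, lysosome and complement genes.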

Other observations

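Cd209 genes encode C-type lectin receptors of the DC-SIGN family, several of which are used as border macrophage or dendritic cell markers. The family was chosen after its values were seen. Of 7 tested genes 6 had a log2 fold change below 0 in ipsilateral sdCAMs, where the median of all genes was 0. In 2 of the 7 each BLZ945 library was lower than each CTL library, against 3.55% of all genes tested. Cd209c, Cd209d and Cd209e reached at most 5.79, 8.69 and 14.9 CPM and were each at 0 in some libraries. Cd209b was at 25.5, 55.5 and 105 CPM in A2, A4 and B1 against 4.51, 10.2 and 0.309 in C3, C4 and D1, a log2 fold change of -3.64 ± 1.084 (SE). Cd209g was at 9.66, 25.4 and 72.2 CPM against 2.80, 2.01 and 2.57, a log2 fold change of -3.85 ± 1.03 (SE). Neither passed the edgeR test (adjusted p = 0.748 and 0.668), and DESeq2 called both. Their contralateral log2 fold changes were -2.91 and -3.15, and the test of the difference between the hemispheres gave an unadjusted p of 0.589 and 0.58 in edgeR. Cd209f was at 57.4, 202 and 418 CPM against 29.6, 60.6 and 47.5, where A2 lay under C4, so that the groups overlapped.

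The degraded ipsilateral libraries entered only the alternative fit with all 16 libraries. CTL mouse A3 held 2 counts of Mrc1, 0 of Cd163, 8 of Pf4, 6 of Tmem119 and 33 of Cd74, at a floor of 55.5 CPM for 3 counts. BLZ945 mouse C2 held 10, 8, 12, 57 and 157 counts of the same genes, at a floor of 54.4 CPM.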
